A study of Mus musculus with 4 samples.

Results

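The BMP, TGF-beta, activin and Id genes of the mouse hippocampus were examined as a family of 61 gene symbols, taken by name from the 22609 genes in the count files. They comprise 27 ligand genes (10 BMPs, 10 GDFs, 3 TGF-betas and 4 activin or inhibin beta subunits), 4 secreted antagonists, 4 latent TGF-beta binding proteins, 12 receptors, 8 Smads and 4 Id genes. The remaining 2 symbols are no ligands despite their names, since Bmp1 encodes a metalloprotease that cleaves procollagen and chordin, and Bmp2k a kinase. PELP1 FBKO mice, forebrain knockouts of PELP1, an estrogen receptor co-regulator, were compared with FLOXED mice, with 2 libraries for each genotype. Both groups were ovariectomized C57BL/6 animals that received estradiol (E2) from mini pumps, underwent global cerebral ischemia (GCI), a transient loss of blood flow to the brain, and were killed at 24 h of reperfusion. The animals' age, the promoter behind the forebrain deletion, the deleted part of Pelp1 and whether libraries came from separate animals are not stated in the labels or series text, so the spread behind each p-value is that between libraries and may be technical. Because all libraries share ischemia and estradiol, a genotype difference that preceded either cannot be told apart from a response to them.

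Ligands of the TGF-beta superfamily are secreted dimers that assemble type I and type II receptor serine/threonine kinases. BMP-type receptors phosphorylate Smad1, Smad5 and Smad9, whereas TGF-beta and activin receptors phosphorylate Smad2 and Smad3, and both sets enter the nucleus with the shared Smad4. Id genes are classical BMP targets that encode helix-loop-helix proteins without a DNA-binding region, which sequester bHLH transcription factors. In the hippocampus BMP signaling is known for restraining neurogenesis and for favoring astrocyte differentiation, and activin A and TGF-beta are known as injury-induced factors.

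Between 17524594 and 22447658 reads were assigned to genes per library, of which 20909 to 30180 belonged to the family. Pelp1, the targeted gene, was at 17.95 and 17.3 CPM (read counts scaled to library size, with TMM factors) in PELP1 FBKO and at 26.7 and 26.3 CPM in FLOXED, a log2 fold change of -0.59 (SE 0.149, edgeR quasi-likelihood adjusted p = 0.130). Neuronal markers of the hippocampus were present in every library, among them Hpca of pyramidal neurons and Prox1 of dentate granule cells. The share of non-unique alignments was between 38.5% and 41.5% in 3 libraries and 47.7% in FLOXED 1. Summed levels of 10 astrocyte markers were 6722 and 8702 CPM in PELP1 FBKO and 5143 and 6125 CPM in FLOXED, and those of 6 CA1 pyramidal markers were 528 and 446 CPM in PELP1 FBKO and 690 and 790 CPM in FLOXED. In such bulk tissue, fewer cells of a type and less RNA per cell cannot be told apart.

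By DESeq2, though not by edgeR or limma-voom, Id4, Id3, Bmp6 and Bmpr1b were higher and Grem1 and Acvr1c lower in PELP1 FBKO hippocampus. Mean levels of most Smads, Bmpr1a, Bmpr2, Nog and the TGF-beta ligands lay near those of FLOXED. For Bmpr2 and Tgfb1 the libraries of a genotype differed widely, so a difference could be missed. A count filter kept 49 of the 61 genes, and a gene could pass it through 1 genotype alone. None of the 49 passed an adjusted p of 0.05 in the edgeR quasi-likelihood test, in which 0% of all 14978 tested genes passed in either direction and the smallest adjusted p was 0.0501. At an unadjusted p under 0.05, 11 tested members (22.4%) were higher, against 10.1% of all tested genes, and 4 (8.16%) were lower, against 5.55%. DESeq2 called 4 members higher (Id4, Id3, Bmp6 and Bmpr1b), where it called 2.13% of tested genes, and 2 lower (Grem1 and Acvr1c), where it called 0.868%. Limma-voom called 0. Both PELP1 FBKO libraries lay above both FLOXED libraries in 20 tested members (40.8%), against 25.4% of all tested genes, and below them in 7 (14.3%), against 23%. The median log2 fold change was 0.15 over the tested members and 0.00015 over all tested genes. With 2 libraries against 2, an exact permutation test of a single gene cannot go below p = 0.333. Calls moved with single libraries: edgeR called 5 members without PELP1 FBKO 1, 5 without PELP1 FBKO 2, 4 without FLOXED 2 and 0 without FLOXED 1.

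**Figure D1:**
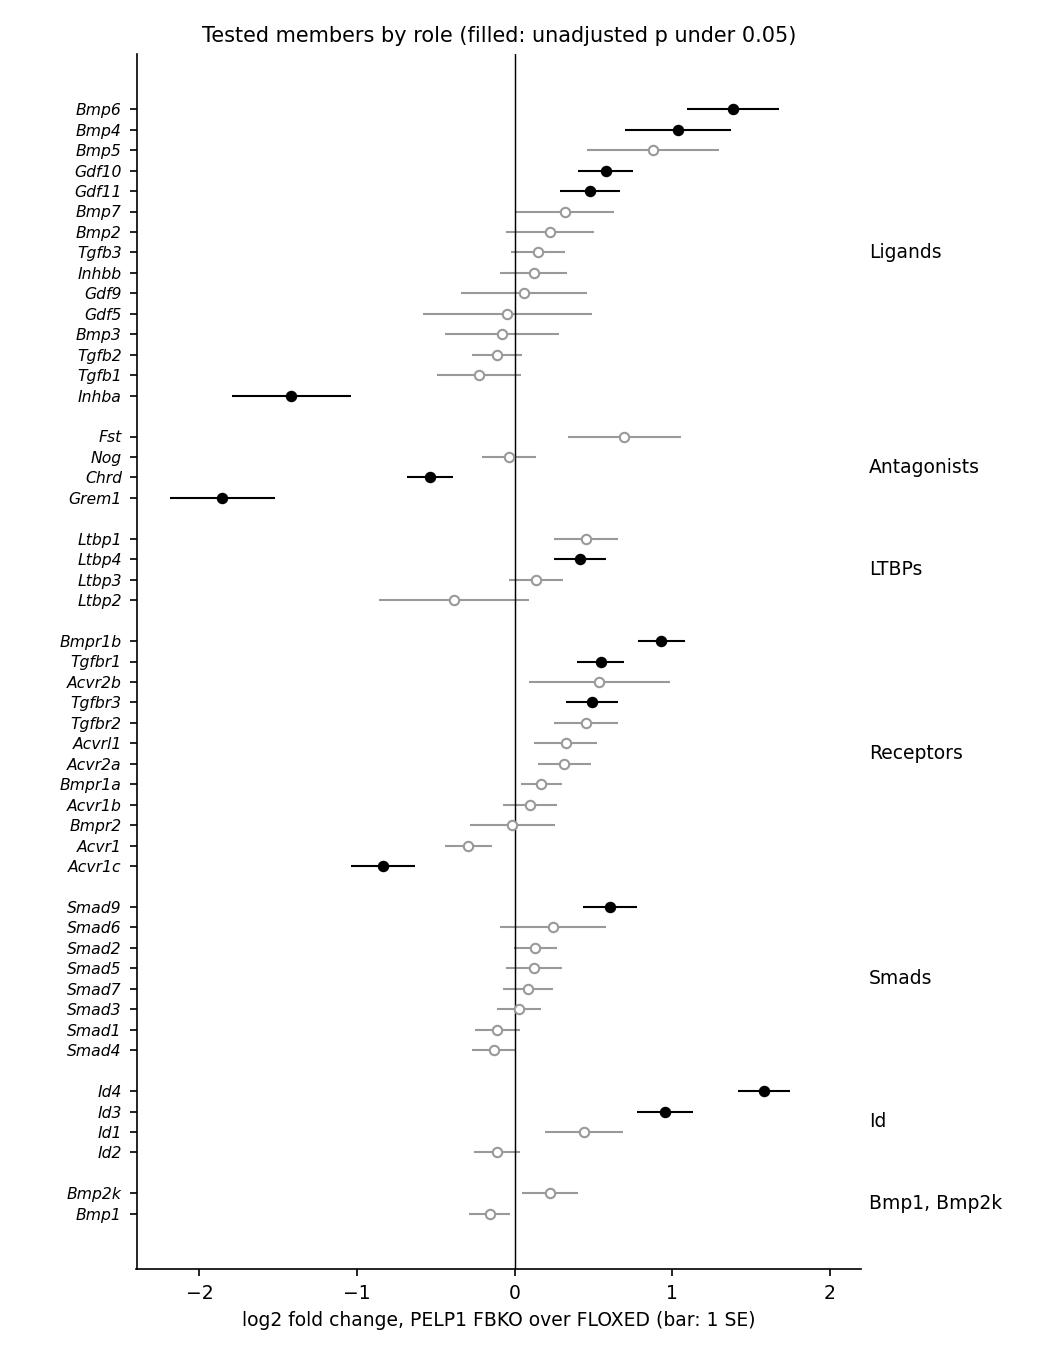
Log2 fold change of PELP1 FBKO over FLOXED (x axis, bars 1 SE from edgeR) for the 49 tested members, grouped by role. Filled points have an unadjusted p under 0.05. Id4 and Bmp6 lie farthest to the right, Grem1 and Inhba farthest to the left, and 6 of the 8 Smads lie between -0.13 and 0.13.

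Of the 6 tested BMP ligands, Bmp6 and Bmp4 had an unadjusted p under 0.05 and were higher, and DESeq2 called Bmp6. Bmp6, best known as the iron-responsive BMP of liver endothelium, had 7.12 and 11.8 CPM in PELP1 FBKO and 3.19 and 3.97 CPM in FLOXED. The lowest PELP1 FBKO value was well above the highest FLOXED value, and the log2 fold change was 1.39 (SE 0.292, edgeR adjusted p = 0.0934, DESeq2 adjusted p = 0.00921). It rested partly on PELP1 FBKO 2, without which the log2 fold change was 0.99, and it was 1.69 without PELP1 FBKO 1. Bmp6 exons overlap those of Txndc5 on the opposite strand in GENCODE vM21, and because the strand setting of the counting was not given, reads of the overlap cannot be assigned with certainty. Txndc5 itself was at 78.8 and 85.6 CPM in PELP1 FBKO and at 76.2 and 67.7 CPM in FLOXED.

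Bmp4, a morphogen and neural progenitor regulator, was low throughout, with 52 and 54 reads in PELP1 FBKO and 18 and 30 reads in FLOXED. Its levels of 2.36 and 2.64 CPM in PELP1 FBKO did not overlap the 1.03 and 1.38 CPM in FLOXED, and the log2 fold change was 1.04 (SE 0.335, edgeR adjusted p = 0.200). Bmp5 also did not overlap, with 0.997 and 1.27 CPM in PELP1 FBKO against 0.627 and 0.600 CPM in FLOXED, and its unadjusted p was 0.0681. Bmp7, which the meninges and choroid plexus express, had 4.13 and 7.54 CPM in PELP1 FBKO and 4.90 and 4.43 CPM in FLOXED. Here a single library, PELP1 FBKO 2, stood above the other 3. Bmp2 had a log2 fold change of 0.23 and Bmp3 of -0.079, and that of Bmp7, 0.32, turned to -0.17 without PELP1 FBKO 2. A positive log2 fold change was found in 5 of the 6 and in 50% of all tested genes.

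Of the growth and differentiation factors, Gdf10 and Gdf11 were modestly higher. Gdf10, also known as BMP3B, had 14.6 and 13.8 CPM in PELP1 FBKO and 9.81 and 9.23 CPM in FLOXED, a log2 fold change of 0.58 (SE 0.173, edgeR adjusted p = 0.173). Gdf11, a close relative of myostatin, had 11.97 and 10.3 CPM in PELP1 FBKO and 7.76 and 8.21 CPM in FLOXED, a log2 fold change of 0.48 (SE 0.189, edgeR adjusted p = 0.280). In both genes the libraries of a genotype were close to each other. The genotypes did not overlap, where 25.4% of all tested genes were higher without overlap. Gdf5 and Gdf9 were near the limit of detection, with 8 to 26 reads in a library. Gdf15, a stress-induced cytokine, did not pass the filter and had 3 and 7 reads in PELP1 FBKO and 21 and 8 reads in FLOXED. The other 11 untested ligand genes (Bmp8a, Bmp8b, Bmp10, Bmp15, Gdf1, Gdf2, Gdf3, Gdf6, Gdf7, Inhbc and Inhbe) had 0 to 12 reads in a library. Gdf1 had 0 reads in all 4 libraries, which allows up to 0.171 CPM in FLOXED 1, the shallowest, as far as counting error goes. Its exons overlap those of Cers1 on the same strand in GENCODE vM21, where reads may be ambiguous between the genes.

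The activin ligands differed from each other. Inhba, whose product dimerizes to activin A, had 1.45 and 2.45 CPM in PELP1 FBKO and 6.62 and 3.83 CPM in FLOXED. All PELP1 FBKO values were lower, but FLOXED 1 was far above FLOXED 2. The log2 fold change was -1.42 (SE 0.376, edgeR adjusted p = 0.142, DESeq2 adjusted p = 0.0656), and without FLOXED 1 it was -0.98 with an edgeR adjusted p of 0.493. Inhbb, the activin B subunit, had 10.3 and 8.67 CPM in PELP1 FBKO and 9.87 and 7.61 CPM in FLOXED, with overlapping genotypes. Follistatin (Fst), the secreted activin trap, had 5.35 and 4.16 CPM in PELP1 FBKO and 1.88 and 3.92 CPM in FLOXED, and its log2 fold change of 0.70 (SE 0.361) had an edgeR adjusted p of 0.397. The genotypes did not overlap for Fst, but PELP1 FBKO 2 and FLOXED 2 were close. Counted within each library, there were 0.271 and 0.588 Inhba reads per Fst read in PELP1 FBKO and 3.52 and 0.976 in FLOXED. The ratio was below 1 in 3 libraries and above it in FLOXED 1 alone.

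The mean levels of each TGF-beta ligand differed little between genotypes. Tgfb1, the isoform of microglia and injury, had 4.44 and 6.95 CPM in PELP1 FBKO and 6.10 and 7.20 CPM in FLOXED. For Tgfb2, the isoform with the highest level per kilobase (13.7 CPM in PELP1 FBKO and 14.8 CPM in FLOXED), the scaled counts were 70.6 and 70.0 CPM in PELP1 FBKO and 65.1 and 86.5 CPM in FLOXED. Tgfb3 had 14.6 and 15.6 CPM in PELP1 FBKO and 12.7 and 14.5 CPM in FLOXED. Their log2 fold changes were -0.23, -0.11 and 0.15, with edgeR adjusted p of at least 0.717, and the genotypes overlapped for Tgfb1 and Tgfb2. The latent binding proteins, which hold TGF-beta in the matrix, included Ltbp4 at 51.0 and 40.7 CPM in PELP1 FBKO and 31.9 and 36.8 CPM in FLOXED. Ltbp4 had a log2 fold change of 0.42 (SE 0.162, edgeR adjusted p = 0.274), Ltbp1 of 0.45 with an unadjusted p of 0.0574, and Ltbp2 and Ltbp3 overlapped between genotypes.

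Secreted BMP antagonists included the most negative fold change of the tested members. Grem1, which encodes gremlin 1, an inhibitor of BMP2, BMP4 and BMP7, had 19 and 28 reads in PELP1 FBKO and 67 and 92 reads in FLOXED. These gave 0.861 and 1.37 CPM in PELP1 FBKO and 3.82 and 4.24 CPM in FLOXED, so the genotypes did not overlap. The log2 fold change was -1.85 (SE 0.333, edgeR adjusted p = 0.0741, DESeq2 adjusted p = 0.0136), and it lay between -2.22 and -1.57 when each library was left out. Chordin (Chrd), which binds BMP2 and BMP4 in the extracellular space, had 67.1 and 54.0 CPM in PELP1 FBKO and 89.7 and 86.0 CPM in FLOXED. Its log2 fold change was -0.54 (SE 0.145, edgeR adjusted p = 0.146, DESeq2 adjusted p = 0.062), and its exons overlap those of Thpo on the opposite strand. Bmp1, which cleaves chordin, had 61.5 and 69.3 CPM in PELP1 FBKO and 74.3 and 71.5 CPM in FLOXED (log2 fold change -0.16, SE 0.129), and Bmp2k had a log2 fold change of 0.22 (SE 0.178). Noggin (Nog), which keeps the adult neural stem cell niche open to neurogenesis, did not separate the genotypes. It had 11.9 and 11.3 CPM in PELP1 FBKO and 11.7 and 12.04 CPM in FLOXED, with a log2 fold change of -0.0335 (SE 0.171). Within a library there were 5.62 and 4.79 Chrd reads per Nog read in PELP1 FBKO and 7.67 and 7.15 in FLOXED. Library scaling does not touch this ratio, in which the genotypes did not overlap. It is no separate test, since Chrd alone was already apart and Nog was level.

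**Figure D2:**
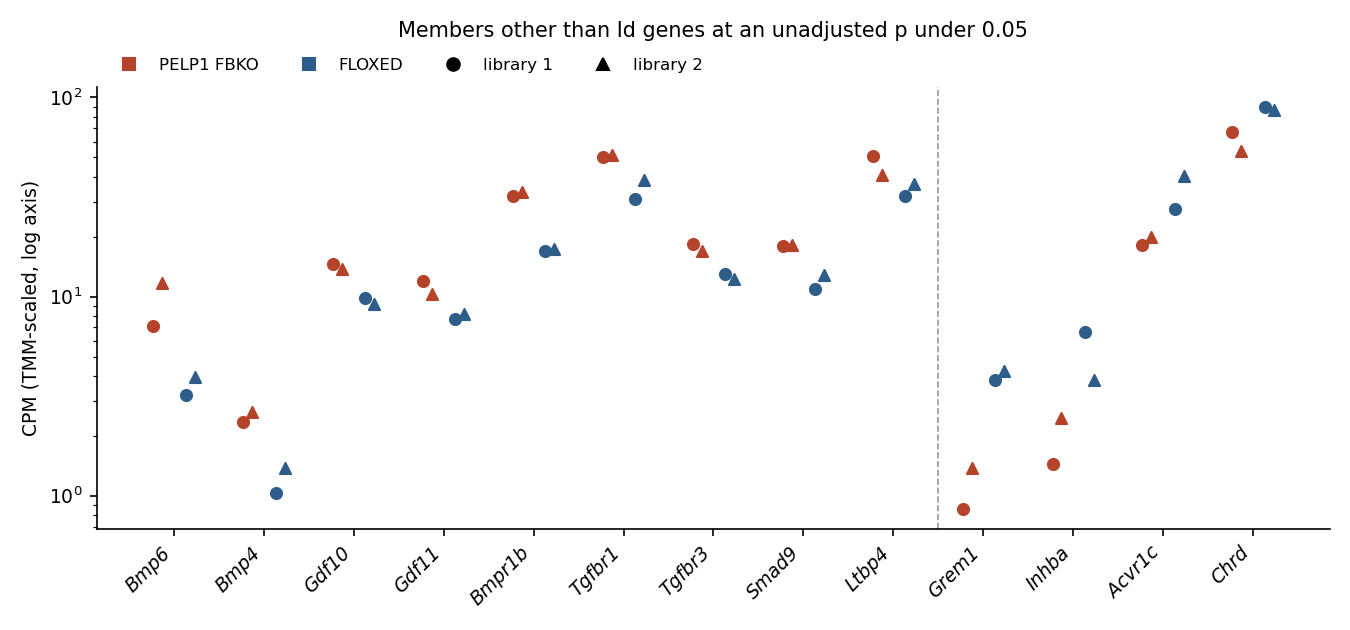
TMM-scaled CPM (y axis, log scale) in each library for the 13 members outside the Id genes with an unadjusted p under 0.05, with PELP1 FBKO left of FLOXED for each gene. Circles are library 1 and triangles library 2. The 9 genes left of the dashed line were higher in PELP1 FBKO and the 4 right of it lower. Genotypes did not overlap in any of the 13, which picking by p favors. Of all tested genes, 25.4% were higher and 23% lower without overlap.

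Of the 5 BMP-type receptors, a single type I receptor stood out. Bmpr1b, a type I receptor found on astrocytes and neural progenitors, had 31.9 and 33.5 CPM in PELP1 FBKO and 17.0 and 17.3 CPM in FLOXED. Libraries of a genotype were nearly level, and the log2 fold change was 0.93 (SE 0.147, edgeR adjusted p = 0.0627, DESeq2 adjusted p = 0.000846). It lay between 0.90 and 0.95 when each library was left out. Bmpr1a, the more widely expressed type I receptor, had 77.8 and 77.9 CPM in PELP1 FBKO and 64.6 and 73.8 CPM in FLOXED, a log2 fold change of 0.17 (SE 0.130). The reads of Bmpr1b per Bmpr1a read were 0.410 and 0.431 in PELP1 FBKO and 0.263 and 0.234 in FLOXED.

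Acvr1, which encodes the ALK2 receptor for BMP6 and BMP7, had 40.5 and 44.1 CPM in PELP1 FBKO and 46.7 and 56.9 CPM in FLOXED, with a log2 fold change of -0.29 (SE 0.149, edgeR adjusted p = 0.391). Acvrl1 encodes ALK1, a receptor of endothelial cells, and its genotypes overlapped at a log2 fold change of 0.32 (SE 0.199). For the type II receptor gene Bmpr2 the spread within a genotype exceeded any difference between them, with 25.8 and 19.1 CPM in PELP1 FBKO and 16.5 and 28.7 CPM in FLOXED.

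TGF-beta receptors were all on the higher side. Tgfbr1, the type I receptor, had 50.1 and 51.4 CPM in PELP1 FBKO and 31.0 and 38.3 CPM in FLOXED, a log2 fold change of 0.55 (SE 0.150, edgeR adjusted p = 0.148). Tgfbr2, its type II partner, had 27.2 and 39.3 CPM in PELP1 FBKO and 22.1 and 26.4 CPM in FLOXED, a log2 fold change of 0.45 (SE 0.203, edgeR adjusted p = 0.337). Tgfbr3, the coreceptor betaglycan, had 18.5 and 16.9 CPM in PELP1 FBKO and 12.9 and 12.2 CPM in FLOXED, a log2 fold change of 0.49 (SE 0.164, edgeR adjusted p = 0.212). The genotypes did not overlap in any of these 3 genes, where 25.4% of all tested genes were higher without overlap. DESeq2 called 0 of the 3, and Tgfbr2 in PELP1 FBKO 1 was only slightly above FLOXED 2.

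Activin receptors differed in direction. Acvr1c, which encodes ALK7, a type I receptor of neurons and adipocytes, was lower, with 18.2 and 19.9 CPM in PELP1 FBKO and 27.5 and 40.4 CPM in FLOXED. Its log2 fold change was -0.84 (SE 0.203, edgeR adjusted p = 0.119, DESeq2 adjusted p = 0.0146), and without FLOXED 2 it was -0.54. The widely expressed activin receptors did not separate the genotypes. For Acvr1b, the ALK4 gene, the log2 fold change was 0.10 (SE 0.171). For the type II receptor gene Acvr2a it was 0.31 (SE 0.168), its exons overlapping those of Orc4 on the opposite strand. Acvr2b was low, with 10 to 27 reads in a library, and its log2 fold change was 0.54 (SE 0.445), with the lowest PELP1 FBKO value barely above the highest FLOXED value.

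The Smads, which carry the receptor signal, were nearly level, with Smad9 as the exception. Smad9, formerly called Smad8, is a BMP-type receptor Smad of low transcriptional activity. Its levels were 18.04 and 18.2 CPM in PELP1 FBKO and 10.9 and 12.9 CPM in FLOXED, a log2 fold change of 0.60 (SE 0.171, edgeR adjusted p = 0.159, DESeq2 adjusted p = 0.194). Its BMP-type relatives Smad1 and Smad5 had log2 fold changes of -0.11 (SE 0.141) and 0.12 (SE 0.177). Smad2 and Smad3, on the TGF-beta and activin side, had 0.13 (SE 0.137) and 0.030 (SE 0.140), and the common Smad4 had -0.13 (SE 0.137). The inhibitory Smads, which are themselves feedback targets of the pathway, had 0.25 (SE 0.336) for Smad6, from 29 to 50 reads in a library, and 0.088 (SE 0.160) for Smad7. Every Smad other than Smad9 had an edgeR adjusted p of at least 0.691.

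The 4 Id genes divided into a pair that was higher and a pair whose genotypes overlapped. Id4, which is expressed in astrocytes and neural stem cells, had 1266 and 1197 reads in PELP1 FBKO and 292 and 476 reads in FLOXED. Its exons overlap those of A330033J07Rik and Gm49291 on the opposite strand in GENCODE vM21. Neither was among the counted genes, so, as for Bmp6, reads of the overlap cannot be assigned with certainty. At 57.4 and 58.6 CPM in PELP1 FBKO against 16.7 and 22.0 CPM in FLOXED, the difference was the largest positive one among tested members, a log2 fold change of 1.58 (SE 0.168, edgeR adjusted p = 0.0501, DESeq2 adjusted p = 2.99e-11, limma-voom adjusted p = 0.061). Over 11 alternatives the log2 fold change of Id4 lay between 1.40 and 1.79 and the adjusted p between 2.99e-11 and 0.209. Id3, a BMP target of endothelium and astrocytes, had 45.02 and 62.3 CPM in PELP1 FBKO and 28.3 and 26.9 CPM in FLOXED. Its log2 fold change was 0.96 (SE 0.178, edgeR adjusted p = 0.0766, DESeq2 adjusted p = 0.000751), with 0.71 without PELP1 FBKO 2 and 1.15 without PELP1 FBKO 1.

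Id1, the classical BMP target of endothelium and neural stem cells, was high in a single library. Its levels were 14.7 and 24.8 CPM in PELP1 FBKO and 15.1 and 14.0 CPM in FLOXED, so PELP1 FBKO 1 lay between the FLOXED values, and the log2 fold change of 0.44 (SE 0.247) had an edgeR adjusted p of 0.430. Id2, which neurons also express, had 95.9 and 109 CPM in PELP1 FBKO and 121 and 100 CPM in FLOXED, a log2 fold change of -0.11 (SE 0.146, edgeR adjusted p = 0.755). Per kilobase of the longest transcript, the level of Id2 was 52.0 CPM in PELP1 FBKO and 56.3 CPM in FLOXED, the highest of the family in both genotypes. Among the Id genes, Id3 came next at 42.0 CPM per kilobase in PELP1 FBKO and 21.6 in FLOXED, then Id1 at 17.1 and Id4 at 15.1 in PELP1 FBKO, where the libraries of these last overlapped. In FLOXED, Id1 was at 12.5 and Id4 at 5.02 CPM per kilobase, without overlap. Within a library there were 0.598 and 0.538 Id4 reads per Id2 read in PELP1 FBKO and 0.137 and 0.219 in FLOXED.

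**Figure D3:**
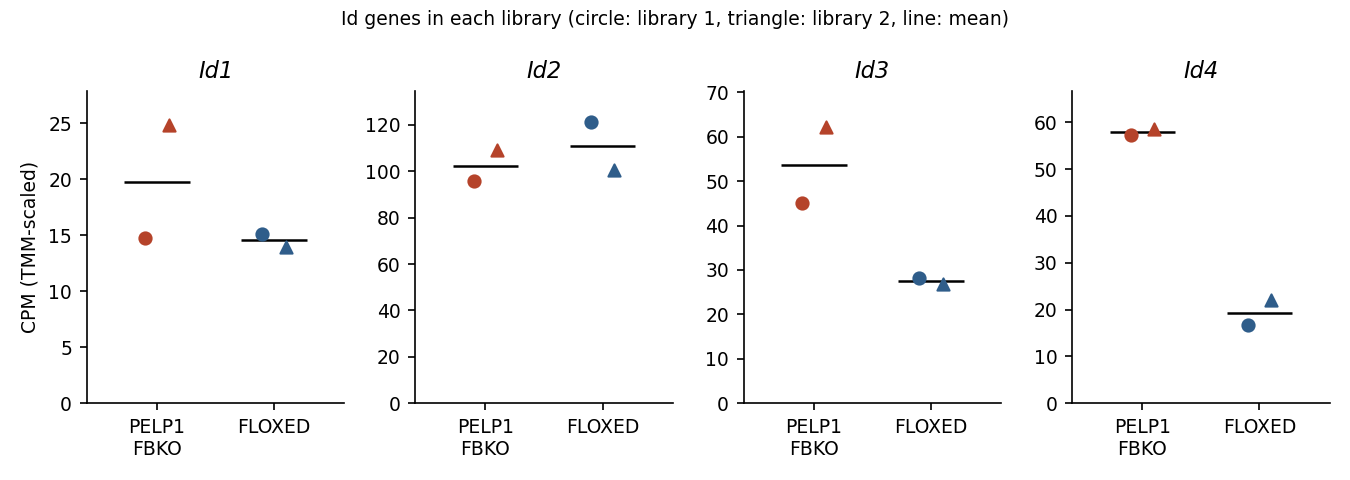
TMM-scaled CPM (y axis, from 0, each panel on its own scale) of Id1, Id2, Id3 and Id4 in each library, PELP1 FBKO left of FLOXED, with the mean as a line. Id4 sits at 57.4 and 58.6 CPM in PELP1 FBKO against 16.7 and 22.0 CPM in FLOXED, Id3 also does not overlap, and for Id1 only PELP1 FBKO 2 lies above the FLOXED values.

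Promoter sequence is shown for Id4 and Id3, which were higher together, and for Id2, whose genotypes overlapped. The RefSeq promoter table of GRCm38.p6 held 44 of the 61 members. The 250 bases before the annotated start lie at chr13:48260866-48261115 on the plus strand for Id4, chr4:136143572-136143821 on the plus strand for Id3 and chr12:25096093-25096342 on the minus strand for Id2. Capitals mark GGCGCC, a core of the BMP response element known from Id1, and GTCT or its complement AGAC, the Smad-binding box, searched on both strands. The sequences read 5′ to 3′ as follows.
Id4: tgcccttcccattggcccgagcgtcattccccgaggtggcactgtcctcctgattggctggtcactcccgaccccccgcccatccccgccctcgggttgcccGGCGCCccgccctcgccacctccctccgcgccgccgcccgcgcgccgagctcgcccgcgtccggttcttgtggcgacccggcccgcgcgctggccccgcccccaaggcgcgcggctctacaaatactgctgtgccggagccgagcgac
Id3: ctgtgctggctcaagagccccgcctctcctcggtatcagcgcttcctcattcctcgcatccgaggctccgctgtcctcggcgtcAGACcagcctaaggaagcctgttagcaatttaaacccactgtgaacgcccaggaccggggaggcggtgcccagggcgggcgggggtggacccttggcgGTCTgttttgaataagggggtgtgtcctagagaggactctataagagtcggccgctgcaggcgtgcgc
Id2: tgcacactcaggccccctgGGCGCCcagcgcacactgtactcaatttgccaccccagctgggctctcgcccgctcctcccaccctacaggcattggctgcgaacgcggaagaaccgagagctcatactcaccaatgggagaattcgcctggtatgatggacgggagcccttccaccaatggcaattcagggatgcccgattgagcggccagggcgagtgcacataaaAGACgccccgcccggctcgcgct
GGCGCC occurred once in Id4, 148 bases before the start, and once in Id2, 231 bases before it, but not in this window of Id3. It was present in 9.59% of all 32851 promoter windows of the same length. The GTCT box occurred 2 times in Id3, 1 time in Id2 and 0 times in Id4, and it was present in 82.9% of windows. The E-box CANNTG, which bHLH factors bind, occurred 1 time in Id2 and 0 times in Id4 and Id3, and 66.2% of windows held it. GGCGCC was thus found in 1 gene that was higher and in 1 whose genotypes overlapped.

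Markers of astrocytes and of several other cell types moved with the higher members, and markers of CA1 pyramidal cells with the lower ones. Summed pan-neuronal markers overlapped, at 7118 and 5888 CPM in PELP1 FBKO and 7056 and 6905 CPM in FLOXED. Those of CA2 and CA3 also overlapped, at 399 and 318 CPM in PELP1 FBKO and 355 and 328 CPM in FLOXED. Of the 6 pan-neuronal markers, 4 had a negative log2 fold change. Hpca, at -0.58 (DESeq2 adjusted p = 0.0216), and Rbfox3, at -0.30, were lower without overlap, and Syt1, at 0.28, was higher without overlap. Of all tested genes, 23% were lower and 25.4% higher without overlap. All 10 astrocyte markers had a positive log2 fold change (median 0.50), 6 of them with an unadjusted p under 0.05, and no marker was at 0. All 6 CA1 markers had a negative log2 fold change (median -0.76), each with an unadjusted p under 0.05, and none was at 0. Set against the astrocyte markers of its own library, Id4 had 8.54 and 6.74 reads per 1000 marker reads in PELP1 FBKO and 3.24 and 3.59 in FLOXED, still without overlap. Id3 had 6.70 and 7.15 in PELP1 FBKO and 5.50 and 4.40 in FLOXED, Bmpr1b had 4.74 and 3.86 in PELP1 FBKO and 3.305 and 2.82 in FLOXED, and Bmp6 and Bmp4 also did not overlap. On this scale, whose denominator was itself higher in PELP1 FBKO, 5.37% of all tested genes were higher and 61.2% lower without overlap, but these members had been picked for their p, so the shares are not comparable. For the other 6 of the 11 higher members, Gdf10, Gdf11, Tgfbr1, Tgfbr3, Smad9 and Ltbp4, the genotypes overlapped on this scale. Tgfbr1, for example, had 7.45 and 5.91 reads per 1000 in PELP1 FBKO and 6.03 and 6.26 in FLOXED.

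The astrocyte sum rests on Gfap, the filament gene of reactive astrocytes, and on Slc1a2, a glutamate transporter gene, which made up 37.5% of it each. Gfap alone had 1500 and 3882 CPM in PELP1 FBKO and 2382 and 2258 CPM in FLOXED, so that its genotypes overlapped while the other 9 markers summed to 5222 and 4821 CPM in PELP1 FBKO and 2761 and 3867 CPM in FLOXED. Against those 9 markers, Id4 had 10.99 and 12.2 reads per 1000 in PELP1 FBKO and 6.03 and 5.68 in FLOXED, and Bmp6 had 1.36 and 2.44 in PELP1 FBKO and 1.16 and 1.03 in FLOXED. Bmp4 also stayed apart. The genotypes now overlapped for Id3, with 8.62 and 12.9 in PELP1 FBKO and 10.2 and 6.97 in FLOXED, and for Bmpr1b, with 6.10 and 6.96 in PELP1 FBKO and 6.16 and 4.46 in FLOXED. On this scale 3 of the 11 higher members, already picked for their p, stayed apart, where 3.08% of all tested genes were higher and 75.5% lower without overlap. Oligodendrocyte markers, of which 10 of 10 were positive, summed to 5914 and 6369 CPM in PELP1 FBKO and 2978 and 3804 CPM in FLOXED. Microglial markers summed to 688 and 877 CPM in PELP1 FBKO and 570 and 567 CPM in FLOXED, mural cell markers to 183 and 217 CPM in PELP1 FBKO and 132 and 156 CPM in FLOXED, and interneuron markers to 1342 and 1408 CPM in PELP1 FBKO and 1082 and 1030 CPM in FLOXED. Dentate granule markers summed to 346 and 270 CPM in PELP1 FBKO and 236 and 247 CPM in FLOXED. Positive log2 fold changes were found in 9 of 10 microglial, 7 of 7 mural, 7 of 8 interneuron and 4 of 5 dentate granule markers. The microglial marker Fcrls was at -0.67 (DESeq2 adjusted p = 0.0233) and the dentate marker C1ql2 at -0.23, while Prox1 and Dsp were at 0.93 and 0.95. The part of these cell types in the higher members, Tgfbr1 among them, was not tested.

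Set against the CA1 markers, Grem1 alone among the 4 lower members kept the genotypes apart. It had 1.63 and 3.07 reads per 1000 marker reads in PELP1 FBKO and 5.54 and 5.37 in FLOXED. On this scale 0.694% of all tested genes were lower and 79.1% higher without overlap. The 4 members had been picked for their p, so the shares are not comparable. Acvr1c had 34.5 and 44.6 in PELP1 FBKO and 39.9 and 51.1 in FLOXED, Chrd had 127 and 121 in PELP1 FBKO and 130 and 109 in FLOXED, and Inhba overlapped too. Markers of other cells that express family members also stood higher. The 10 endothelial markers summed to 370 and 352 CPM in PELP1 FBKO and 229 and 298 CPM in FLOXED, and the 10 meningeal fibroblast markers to 186 and 287 CPM in PELP1 FBKO and 142 and 177 CPM in FLOXED. In each of these lists 9 of 10 markers had a positive log2 fold change. Per 1000 endothelial marker reads, Bmp6 had 19.2 and 33.4 reads in PELP1 FBKO and 14.0 and 13.3 in FLOXED. Here 5.25% of all tested genes were higher and 68.8% lower without overlap, but Bmp6 had likewise been picked for its p. On the same scale Id3 had 122 and 177 in PELP1 FBKO and 124 and 90.5 in FLOXED, which overlapped. Per 1000 meningeal marker reads, Bmp6 had 38.2 and 41.0 reads in PELP1 FBKO and 22.4 and 22.4 in FLOXED. Genotypes did not overlap there, but Bmp6 had been picked for its p, and the share of all tested genes was not counted on that scale. Of the choroid plexus markers, Ttr had 21.4 and 33.9 CPM in PELP1 FBKO and 324 and 67.5 CPM in FLOXED. The other 9 summed to 35.7 and 36.6 CPM in PELP1 FBKO and 34.4 and 37.4 CPM in FLOXED, with overlapping genotypes. That sum rests largely on Kl, at 25.7 and 18.6 CPM in PELP1 FBKO and 20.5 and 26.3 CPM in FLOXED, and hides differences between libraries. Otx2, Folr1 and Clic6 were highest in PELP1 FBKO 2, Otx2 with 46 reads there, 9 in PELP1 FBKO 1 and 7 and 10 in FLOXED. Kcne2 and Slc4a5 were highest in FLOXED 1, where Ttr was highest too. The part of cell makeup in the members' levels was not tested beyond these ratios.

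**Figure D4:**
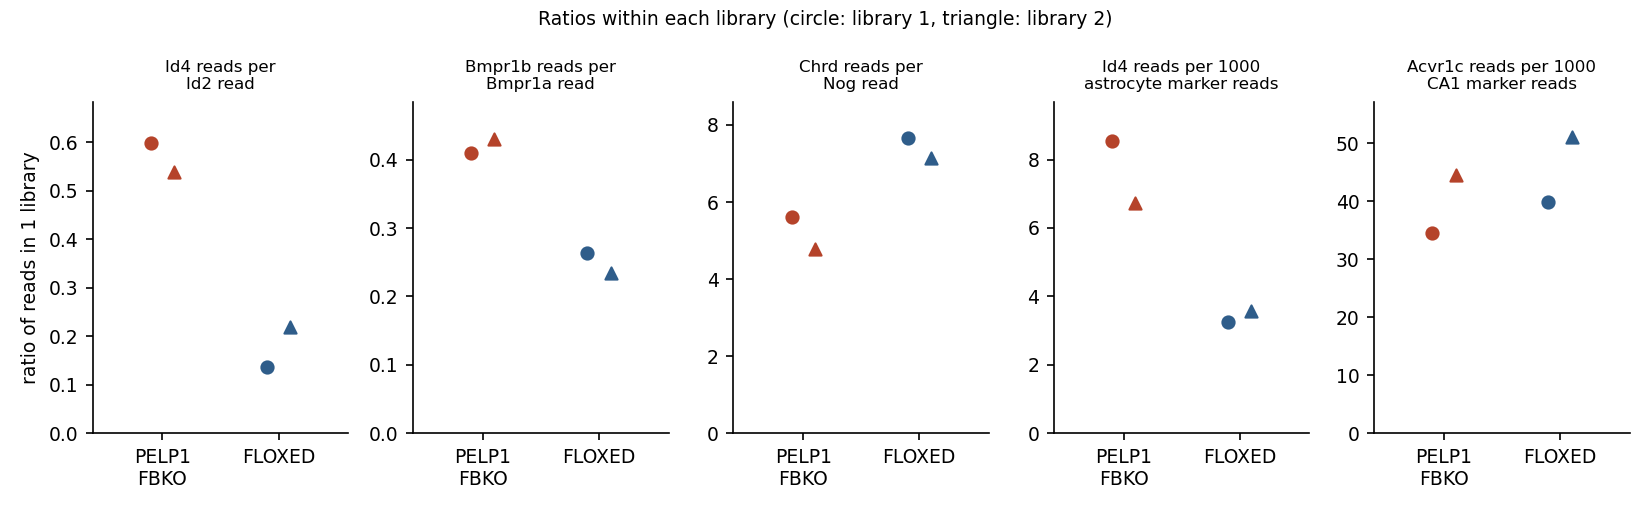
Ratios of reads counted within 1 library (y axes, from 0, each panel on its own scale), PELP1 FBKO left of FLOXED, circles library 1 and triangles library 2. Genotypes stay apart for Id4 per Id2, Bmpr1b per Bmpr1a, Chrd per Nog and Id4 per astrocyte marker reads. They overlap for Acvr1c per CA1 marker reads, with 34.5 and 44.6 in PELP1 FBKO and 39.9 and 51.1 in FLOXED. The ratios were chosen after values were seen, and Id4, Bmpr1b and Chrd were already apart on their own, so the panels are no separate test.

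Members also differed between libraries of a genotype. In PELP1 FBKO, library 2 was more than 1.5 times library 1 in 7 of the 49 tested members, against 8.30% of all tested genes, and less than 1 over 1.5 of it in 0, against 1.76%. Those 7 were Bmp7, at 1.83 times, Gdf5, Inhba, Id1, Bmp6, Grem1 and Tgfb1. The sum of meningeal fibroblast markers was also higher in PELP1 FBKO 2 than in PELP1 FBKO 1, as given above. Its part in these members was not tested beyond the ratio given for Bmp6. In FLOXED, library 2 was above 1.5 times library 1 for Fst, Bmpr2 and Bmp3 and at 0.579 times for Inhba, with 5.57% of all tested genes above 1.5 times and 5.55% below 1 over 1.5.

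Outside the family, 91 further genes of the pathway were read from the same fit, and 82 passed the filter. By edgeR 0 passed the adjusted threshold. The unadjusted p was under 0.05 for 8 higher genes (9.76%) and 6 lower genes (7.32%), close to the 10.1% and 5.55% of all tested genes. DESeq2 called 3 higher (3.66%) and 2 lower (2.44%), against 2.13% and 0.868%, and limma-voom called 0. Pcsk6, a proprotein convertase that processes TGF-beta family precursors, had 25.8 and 31.2 CPM in PELP1 FBKO and 12.2 and 15.2 CPM in FLOXED, a log2 fold change of 1.05 (SE 0.184, edgeR adjusted p = 0.0727). Rgma, a BMP coreceptor and axon repellent, had 68.9 and 69.3 CPM in PELP1 FBKO and 40.1 and 48.3 CPM in FLOXED, a log2 fold change of 0.64 (SE 0.141, edgeR adjusted p = 0.0993). DESeq2 called both of these genes higher. Atoh8, a BMP-responsive bHLH factor, had a log2 fold change of 1.08 (SE 0.326) from 1.14 to 3.04 CPM, and Itgb8, a subunit of the integrin that activates latent TGF-beta, had 0.56 (SE 0.211).

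The lower genes of the wider pathway included some feedback targets of TGF-beta, Pmepa1 and Skil. The inhibitory Smads, also feedback targets, were not lower, with log2 fold changes of 0.25 for Smad6 and 0.088 for Smad7. Pmepa1, a TGF-beta-induced feedback inhibitor that binds Smad2 and Smad3, had 50.4 and 66.1 CPM in PELP1 FBKO and 93.1 and 98.2 CPM in FLOXED, a log2 fold change of -0.72 (SE 0.157, edgeR adjusted p = 0.0998, DESeq2 adjusted p = 0.00543). Skil, the Smad corepressor SnoN, had 101 and 76.1 CPM in PELP1 FBKO and 109 and 149 CPM in FLOXED, a log2 fold change of -0.55 (SE 0.194, edgeR adjusted p = 0.238). In neither gene did the genotypes overlap, where 23% of all tested genes were lower without overlap. Lefty1, an antagonist of Nodal that was also listed as a CA1 marker, had 6.94 and 4.90 CPM in PELP1 FBKO and 12.6 and 11.8 CPM in FLOXED (log2 fold change -1.04, SE 0.223, DESeq2 adjusted p = 0.0214). Junb and Bhlhe40, immediate early or stress-responsive targets, had log2 fold changes of -0.47 (SE 0.129) and -0.41 (SE 0.141). Of 13 tested genes listed as BMP or TGF-beta targets, 1 higher (7.69%) and 3 lower genes (23.1%) reached an unadjusted p under 0.05, against 10.1% and 5.55% of all tested genes, with a median log2 fold change of -0.33. The 15 tested antagonists outside the family had a median of 0.23, with 1 higher (6.67%) and 0 lower at that p. Of the 12 tested bHLH and HES factors, 3 were higher (25%) and 0 lower at that p, with a median of 0.060. The 18 intracellular regulators had a median of 0.0029, with 0 higher and 2 lower (11.1%). Each of these counts is of 3 genes or fewer.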

How the data were processed

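Hippocampal RNA of 4 libraries was sequenced as single reads, per the labels' protocols. Deposited values are raw counts of reads for each gene symbol, as the authors' files show by whole numbers and unequal totals. The authors' tools were CASAVA 1.8.2, TopHat2 2.0.8b and HTSeq with the mm9 build, per the submitters' processing notes, although the series text names a human build. HTSeq's version, strand and overlap settings are not given in the sources used here. HTSeq's summary rows stayed out of sizes and tests: reads in no gene were 14.7% to 15.7% of uniquely placed reads. Libraries of a genotype differed beyond sampling noise (chi-square per degree of freedom 17.4 in PELP1 FBKO and 23.3 in FLOXED), so none was taken for a repeat deposit, which does not show separate animals.

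Genotypes, taken from the labels, were compared over all 14978 genes kept by filterByExpr with edgeR 4.0.16 (R 4.3.3): TMM scaling, a quasi-likelihood F test, Benjamini-Hochberg adjustment over all of them and a threshold of 0.05. A log2 fold change is PELP1 FBKO over FLOXED, with SE derived from F. Alternatives were limma-voom (limma 3.58.1), DESeq2 1.42.0, other filters and size factors, a block of replicate number, each library left out, and length and GC offsets from GENCODE vM21, the offsets and a crossed block added after the data were seen. The steps were tested on simulated data. Intervals and floors (3 reads) cover counting error only. Values per library were given for members with an unadjusted p under 0.05 and for 19 members chosen by name, and for up to 10 further pathway genes, by smallest p. Members, lists and tests were chosen with earlier results of these data known. Ratios to marker reads and between members were chosen after values were seen, as were Bmp5, Inhbb and the other members described outside that rule. A pathway gene that the naming rule takes is not reported here.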

Additional observations from a re-analysis of the deposited data

How the results depend on the processing

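Counts of calls depended on the setting. Against 0 genes and 0 members past the adjusted threshold, edgeR called 17 genes and 1 member with RLE size factors, 359 and 6 without a count filter, 235 and 5 with offsets for length and GC content, and 43 and 2 with a minimum of 50 reads per library, while DESeq2 called 449 and 6. Limma-voom called 0 of either, against 15 members at an unadjusted p under 0.05. Leaving out each library gave 0 to 598 genes and 0 to 5 members, the lone library being assumed to vary like the others. For the other pathway genes, the counts were 5 without a filter, 1 with at least 50 reads, 5 by DESeq2, 2 with the offsets and 0 to 5 with a library left out, against 0. Members at an unadjusted p under 0.05 numbered 13 to 18 with a library left out and 13 to 17 otherwise, against 15.

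A replicate block on the shared numbers gave 566 genes, 7 members and 7 other pathway genes, but no label pairs these libraries, and deviations of same-numbered libraries correlated at -0.118 across genes. A crossed replicate block, added after the data were seen, gave 314 genes, 5 members and 4 other pathway genes.

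Of the 49 tested members, 17 turned direction in some setting, none of them with an unadjusted p under 0.05: Acvr1b, Bmp3, Gdf5, Gdf9, Inhbb, Ltbp3, Smad2, Smad3, Smad5, Smad6 and Smad7, and 6 of the 27 that the naming rule takes. Of those 6, Bmpr2 had 0.013 by limma-voom and 0.022 with the replicate block, and Nog had 0.060 with the offsets. With a library left out, the log2 fold change ran from -0.17 to 0.68 for Bmp7, from -0.36 to 0.44 for Bmpr2, from -0.26 to 0.027 for Id2, from -0.094 to 0.0083 for Nog, from -0.58 to 0.043 for Tgfb1 and from -0.30 to 0.099 for Tgfb2. The cause was not tested. A gene with 0 reads could be at up to 0.134 to 0.171 CPM, which limits the least abundant ligands.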
